A study of Mus musculus with 24 samples.

Results

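Acute deletion of FoxO1 was examined in fasted mouse liver by comparing 3 livers in which Foxo1 had been deleted with 3 control livers, chosen by their sample titles from the 24 samples of the series. All 6 came from C57BL/6 mice with the FoxO1lox/lox genotype, in which loxP sites flank part of the gene. Each mouse had received adeno-associated virus of serotype 8 (AAV8) through the tail vein, and livers were collected on day 21 after injection and after 4 h of fasting. The virus carried Cre recombinase in one group (AAV8.TBG.Cre, hereafter Cre) and enhanced green fluorescent protein in the other (AAV8.TBG.eGFP, hereafter GFP), both under the TBG promoter, which is active in hepatocytes. The Cre and GFP groups therefore share the floxed allele, the virus and the fast, and differ in what the virus encoded. A further 2 comparisons from the same series are used beside this one. Refed acute livers (3 Cre, 3 GFP) came from mice treated alike that were fasted for 4 h and then fed for 1 h. Fasted constitutive livers came from mice with an Albumin-cre transgene that deletes the floxed gene (KO, 3 samples) or from FoxO1lox/lox mice without it (WT, 3 samples), with no virus. Sex and age are not in the labels. Nor do they say whether the 3 samples of a group are 3 animals, so the spread that each p-value is measured against may be technical.

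FoxO1 is a forkhead transcription factor that insulin keeps out of the nucleus through the kinase Akt. In the fasted liver it enters the nucleus and, with coactivators, raises genes of glucose production such as G6pc and Pck1, together with Igfbp1 and the insulin receptor substrate Irs2. Insulin after a meal reverses this.

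Levels are in FPKM, fragment numbers scaled to transcript length and library depth. Changes are differences in log2(FPKM + 1), Cre minus GFP, with their standard error (SE), and a fold is a ratio of mean FPKM. A gene was called when its p from limma, Benjamini-Hochberg adjusted over 10452 genes, was under 0.05. The files imply 14430000 fragments in GFP 3 and 12880000 in Cre 1, and 6290000 to 7650000 in each of the other fasted acute libraries. Of the 12 acute libraries, fasted and refed, 8 are of this shallower kind. The 4 deeper acute libraries deviated from their group means together, with correlations across genes of 0.16 to 0.472 in 6 of 6 pairs. Pairs of shallower libraries had -0.178 to 0.368, with 16 of 24 above 0. Pairs of a deeper and a shallower library had -0.531 to 0.125. Deviations within a group sum to 0, so these ranges are tied to each other by arithmetic. With a term for depth 29 genes were called, and over the shallower libraries alone 5, against 31 in the fit over all 12. The shallower fit keeps GFP 1 and 2 and Cre 2 and 3 of the fasted libraries. Depth and the loss of replicates cannot be told apart in it. Hepatocyte markers had a summed level of 71580 to 73780 FPKM in GFP and 66030 to 74090 FPKM in Cre livers. The Y-linked gene Ddx3y was between 7.58 and 10.1 FPKM in all 6 libraries.

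Foxo1 (chromosome 3, 52268337 to 52350109, mm10) measured 4.49, 4.33 and 4.58 FPKM in GFP 1, 2 and 3 and 0.396, 0.212 and 0.360 FPKM in Cre 1, 2 and 3. Every Cre library lay far below every GFP library, with a mean 13.8-fold lower in Cre livers. The log2 change was -2.05 ± 0.10 (SE; limma, adjusted p = 3.09e-06), and the exact two-sided permutation test over the 6 samples gave p = 0.1, the smallest that 3 against 3 allows. The related factors Foxo3 and Foxo4 were not called. Foxo3 differed by -0.39 ± 0.20 (limma, adjusted p = 0.471) and Foxo4 by -0.11 ± 0.12 (limma, adjusted p = 0.787), and in both genes the groups overlapped.

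Of the 10452 genes tested, 31 were called (0.297%), 11 higher (0.105%) and 20 lower (0.191%) in Cre livers. The groups did not overlap in any of the 31 genes, which is no further support, since these were picked by p on the same values. Over all genes tested the groups did not overlap in 18.7%, with Cre above in 9.15% and below in 9.55%. Before adjustment, p was under 0.05 for 12.3% of genes, higher in 5.74% and lower in 6.58%. The median change of all genes was -0.01, and 51.8% were below 0.

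**Figure D1:**
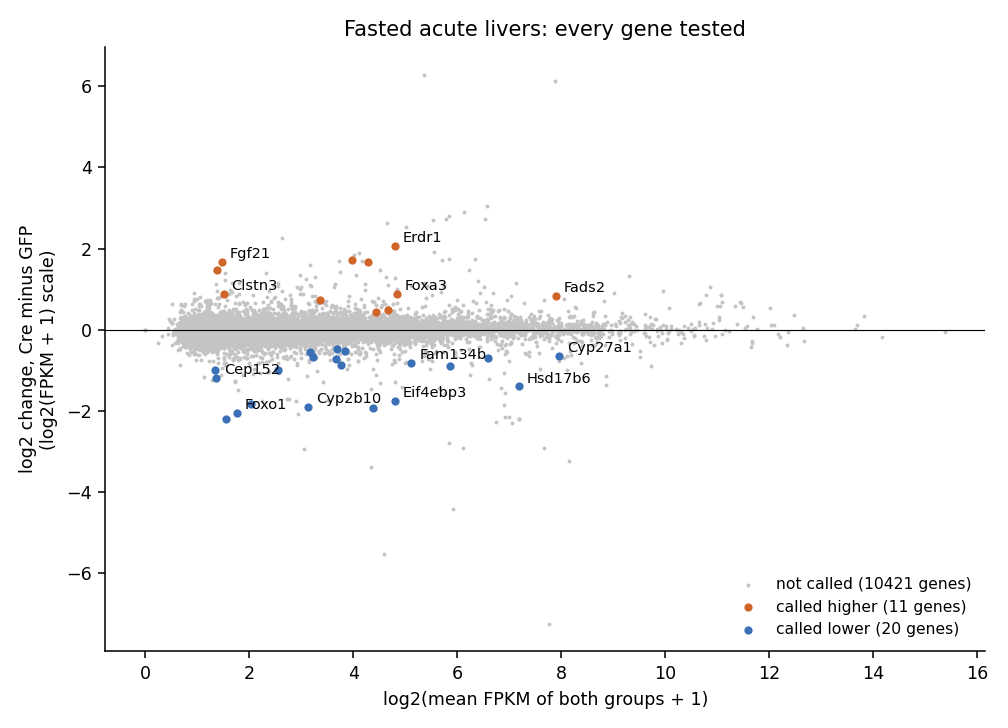
Each point is 1 of 10452 genes, with the log2 of its mean FPKM + 1 over both groups on the x axis and its log2 change, Cre minus GFP, on the y axis; orange marks the 11 genes called higher and blue the 20 called lower. Called genes span low levels (Foxo1, Fgf21) to high ones (Fads2, Cyp27a1), and some grey points with larger changes were not called.

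The promoters of G6pc, Irs2 and Igfbp1, which are textbook FoxO1 targets, and of Cyp2c38, a called gene, are shown because each holds a forkhead word. Each run is the 250 bases before the gene's start, 5′ to 3′ on the gene's strand, from RefSeq (GRCm38.p6), with the match in capitals. The words searched on both strands were GTAAACA, the general forkhead word, and CAAAACA, the core of insulin response sequences such as that of Igfbp1, and none of the windows printed held both.
G6pc (chr11:101367466-101367715, plus strand): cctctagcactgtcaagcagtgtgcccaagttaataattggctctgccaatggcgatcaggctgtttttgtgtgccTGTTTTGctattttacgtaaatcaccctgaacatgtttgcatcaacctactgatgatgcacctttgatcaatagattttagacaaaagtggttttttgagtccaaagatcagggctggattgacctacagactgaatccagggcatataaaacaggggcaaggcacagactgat
Irs2 (chr8:11008930-11009179, minus strand): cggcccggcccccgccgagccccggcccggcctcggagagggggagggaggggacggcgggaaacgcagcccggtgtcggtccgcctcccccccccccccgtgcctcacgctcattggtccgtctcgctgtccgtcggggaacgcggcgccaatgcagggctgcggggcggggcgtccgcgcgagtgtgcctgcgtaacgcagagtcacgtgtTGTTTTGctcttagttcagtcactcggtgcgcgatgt
Igfbp1 (chr11:7197537-7197786, plus strand): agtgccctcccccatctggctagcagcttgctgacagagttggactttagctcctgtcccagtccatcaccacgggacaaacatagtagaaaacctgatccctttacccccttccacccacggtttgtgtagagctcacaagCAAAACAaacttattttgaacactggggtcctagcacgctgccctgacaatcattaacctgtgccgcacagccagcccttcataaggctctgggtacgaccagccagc
Cyp2c38 (chr19:39463076-39463325, minus strand): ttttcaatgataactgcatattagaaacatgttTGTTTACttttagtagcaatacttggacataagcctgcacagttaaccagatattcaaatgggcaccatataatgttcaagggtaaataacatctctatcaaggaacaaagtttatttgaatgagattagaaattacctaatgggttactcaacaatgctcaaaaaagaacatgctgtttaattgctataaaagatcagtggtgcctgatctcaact

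Counted from the gene's start, the match begins at -174 in G6pc, -37 in Irs2, -108 in Igfbp1 and -217 in Cyp2c38. In windows of 250 bases before to 50 after the start, found for 8336 of the genes tested, GTAAACA was in 3.36% and CAAAACA in 5.52%, and 8.59% held either. Of 13 genes called lower with a window, 2 held a match (15.4%), Cyp2c38 and Fam134b, and of 7 called higher 0 did. Of 21 FoxO1 target genes with a window, 6 held a match (28.6%), and none of them was called. G6pc, Irs2 and Igfbp1 changed by -1.57, -0.88 and -0.56, and Sesn1, Txnip and Ccng2 by -0.03, 0.07 and 0.00. CAAAACA is known from sequences such as that of Igfbp1, itself a listed target, so this share is no independent support. A match is a run of letters and not a measured binding site.

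Genes of glucose output were mostly lower in Cre livers, and 1 of them was called, against 0.191% of all genes called lower. Of 18 listed genes 13 were below 0, against 51.8% of all genes, with a median change of -0.30. Unadjusted p was under 0.05 for 9 in the lower and 0 in the higher direction, against 6.58% and 5.74% of all genes. Slc37a4 (chromosome 9, 44398176 to 44402965), which moves glucose-6-phosphate into the endoplasmic reticulum, measured 119, 117 and 120 FPKM in GFP 1, 2 and 3 and 73.7, 63.7 and 81.4 FPKM in Cre 1, 2 and 3. The GFP libraries were nearly equal and all Cre libraries were below them. It fell by 0.70 ± 0.10 on the log2 scale (limma, adjusted p = 0.0116), a call lost without any GFP library or without Cre 2 (adjusted p up to 0.0677).

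G6pc is the enzyme that then splits off the phosphate and frees glucose. It measured 167, 177 and 191 FPKM in GFP 1, 2 and 3 and 49.0, 54.5 and 78.2 FPKM in Cre 1, 2 and 3. The groups were widely apart, with a mean 2.95-fold lower in Cre livers, yet the log2 change of -1.57 ± 0.34 was not called (limma, adjusted p = 0.0873). Fitted on the 6 fasted libraries alone it was called (adjusted p = 0.0155). Its refed levels, 118 ± 49.1 FPKM in GFP and 115 ± 46.0 FPKM in Cre livers (SD, n = 3 each), enter the same estimate of spread.

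Pck1, which makes phosphoenolpyruvate at the entry of gluconeogenesis, measured 1109, 991 and 1161 FPKM in GFP 1, 2 and 3 and 466, 467 and 899 FPKM in Cre 1, 2 and 3. Cre 3 lay close to the GFP range while Cre 1 and 2 were well below it. Its log2 change was -0.90 ± 0.30 (limma, adjusted p = 0.243). The coactivator gene Ppargc1a was at 2.09, 1.88 and 1.87 FPKM in GFP and 1.14, 0.989 and 1.05 FPKM in Cre livers, without overlap (-0.52 ± 0.17, adjusted p = 0.239). Tat, which degrades tyrosine, was at 576, 531 and 788 FPKM in GFP and 207, 238 and 444 FPKM in Cre livers (-1.15 ± 0.37, adjusted p = 0.237). Other steps of the pathway were nearly level: Fbp1 differed by 0.10 and Pcx by 0.00 on the log2 scale, with adjusted p of 0.664 and 0.996.

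**Figure D2:**
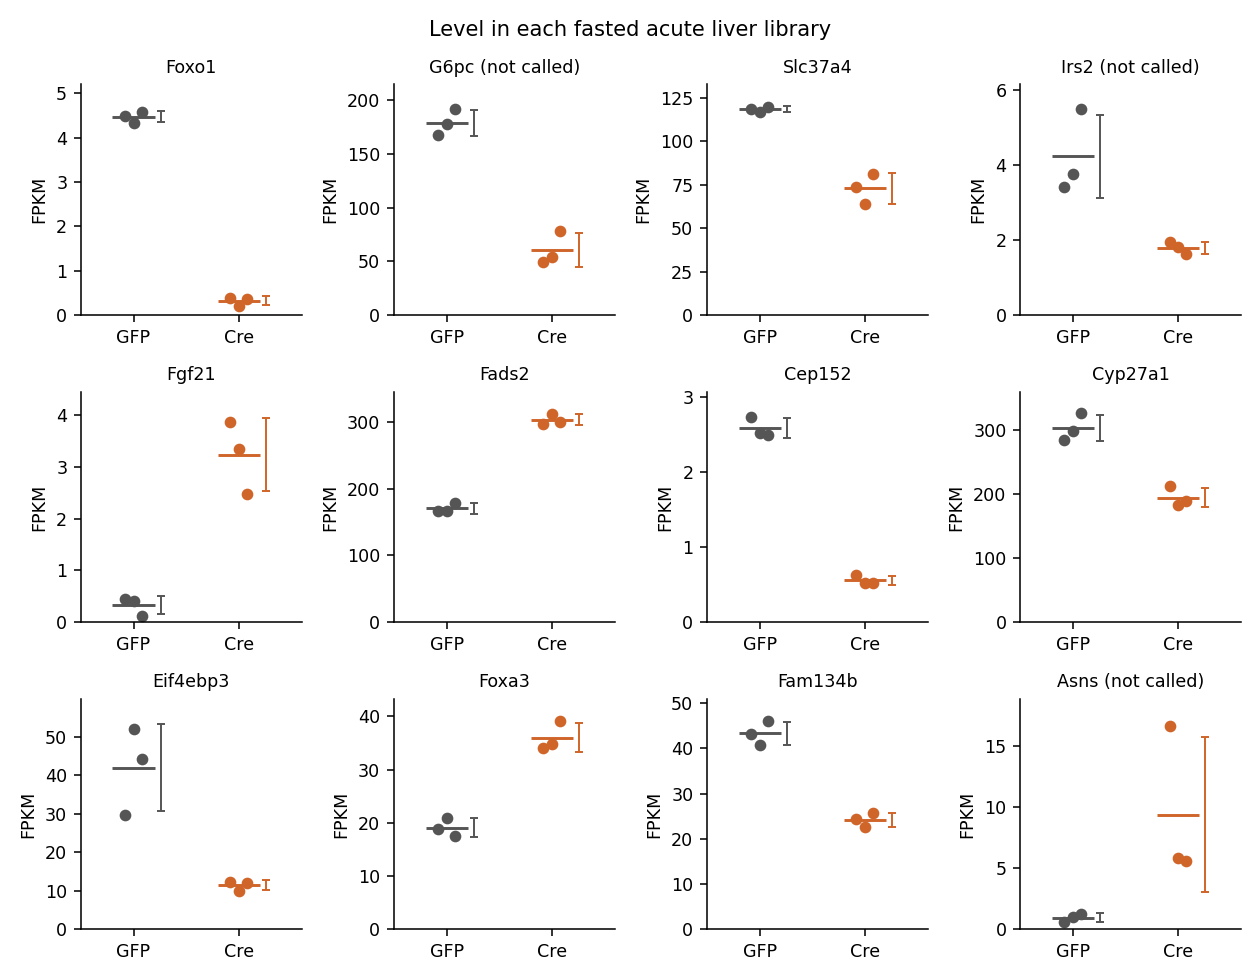
FPKM of 12 genes in each GFP (grey) and Cre (orange) fasted acute library, 1 panel a gene with an axis from 0; points are libraries 1, 2 and 3 from left to right, the line is the group mean and the bar beside it the SD. The groups do not overlap in any panel, and G6pc, Irs2 and Asns, though apart, were not called.

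Among 26 genes of a FoxO1 target list, 16 were below 0, against 51.8% of all genes, with a median change of -0.20 (-0.12 without Cre 1). Of the 26, 2 were called, both lower, against 0.191% of all genes. Unadjusted p was under 0.05 for 10 in the lower and 2 in the higher direction, against 6.58% and 5.74% of all genes. Eif4ebp3, which binds the cap-binding factor eIF4E and restrains translation, measured 29.7, 52.1 and 44.2 FPKM in GFP 1, 2 and 3 and 12.4, 10.1 and 12 FPKM in Cre 1, 2 and 3. Cre livers were uniformly low and GFP livers spread, and the gene fell by 1.75 ± 0.31 (limma, adjusted p = 0.0482). Klf15, a factor that drives amino acid catabolism for gluconeogenesis, measured 68.8, 70.0 and 85.9 FPKM in GFP and 43.1, 31.2 and 45.8 FPKM in Cre livers. It fell by 0.90 ± 0.16 (limma, adjusted p = 0.0482), and both calls were lost when any of the 6 libraries was left out (adjusted p up to 0.222 and 0.178).

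Irs2, which couples the insulin receptor to its kinase cascade, measured 3.43, 3.78 and 5.51 FPKM in GFP 1, 2 and 3 and 1.96, 1.81 and 1.64 FPKM in Cre 1, 2 and 3. All Cre values lay below all GFP values, and the change of -0.88 ± 0.17 just missed the threshold (limma, adjusted p = 0.0611). Igfbp1, a secreted binding protein for insulin-like growth factors, measured 85.5, 43.6 and 78.4 FPKM in GFP and 19.1, 56.8 and 82.2 FPKM in Cre livers. Its groups overlapped, with Cre 2 and 3 inside the GFP range and Cre 1 below it (-0.56 ± 0.71, adjusted p = 0.815). Without Cre 1 the change was 0.04, of the other sign.

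The transcriptional repressor Bcl6 was at 2.73 to 6.67 FPKM in GFP and 2.14 to 2.28 FPKM in Cre livers (-0.81, limma, adjusted p = 0.173). Pdk4, which blocks glucose oxidation and is counted as a FoxO1 target, lay the other way, at 0.713 to 0.963 FPKM in GFP and 1.13, 5.88 and 3.50 FPKM in Cre livers (1.16, adjusted p = 0.154). A gene was tested if it reached 1 FPKM in at least 3 fitted libraries. Pdk4 did so only through the fasted Cre libraries, where it was high, so its value is not independent of that filter. It is among the target genes counted above with unadjusted p under 0.05 in the higher direction. The insulin signalling list of 19 genes had a median change of -0.04 and 0 calls. Its kinases Akt1 and Akt2 differed by 0.01 and 0.00.

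In the glycogen list of 11 genes 7 were below 0, 4 of them with unadjusted p under 0.05, against 6.58% of all genes in that direction. The lowest was Ppp1r3g, a subunit that targets a phosphatase to glycogen, at 5.90, 1.73 and 4.84 FPKM in GFP and 0.555, 0.491 and 1.14 FPKM in Cre livers (-1.49 ± 0.40, limma, adjusted p = 0.159).

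Fgf21, which encodes a hormone the liver secretes in fasting and stress (chromosome 7, 45613890 to 45615490), measured 0.453, 0.409 and 0.128 FPKM in GFP 1, 2 and 3 and 3.87, 3.35 and 2.48 FPKM in Cre 1, 2 and 3. It was scarce in every GFP library, at 3, 3 and 2 implied fragments, against 53, 24 and 20 in the Cre libraries. Over pooled fragments and depth the ratio was 12.2, with an exact binomial 95% interval of 5.94 to 29.0 that covers counting error only. Fgf21 rose by 1.67 ± 0.19 on the log2 scale (limma, adjusted p = 0.00384). It stayed called with any 1 library left out, and over the 8 shallower acute libraries its adjusted p was 0.0776.

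Other genes of secreted liver hormones did not pass. Of the 15 genes listed, Fgf21 included, 9 were above 0 and 6 below, with a median change of 0.13 (0.05 without Cre 3). Unadjusted p was under 0.05 for 4 in the higher direction, Fgf21 among them, and 2 in the lower. Over all genes the shares were 5.74% and 6.58%. The 3 genes given here lay in the higher direction. Enho, the precursor of adropin, measured 9.02, 12 and 11.9 FPKM in GFP and 33.7, 38.4 and 25.3 FPKM in Cre livers (1.47 ± 0.28, limma, adjusted p = 0.0567). Inhbe, which encodes an activin subunit, was at 14.7 to 23.6 FPKM in GFP and 32.8 to 43.2 FPKM in Cre livers (0.98 ± 0.20, adjusted p = 0.0782). Gdf15, a stress-induced hormone, was at 8.41, 2.64 and 1.24 FPKM in GFP and 9.73, 14.6 and 11.6 FPKM in Cre livers (1.59 ± 0.43, adjusted p = 0.163). For each of these 3 genes the Cre values were above the GFP values, although GFP 1 came close for Gdf15.

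Fgf21 and Gdf15 also belong to the integrated stress response, in which the factor Atf4 turns on genes of amino acid supply. Its 17 listed genes had a median change of 0.02, with 1 called. Asns, the asparagine synthetase, measured 0.584, 0.995 and 1.29 FPKM in GFP and 16.7, 5.82 and 5.60 FPKM in Cre livers, with Cre 1 far above Cre 2 and 3, and was not called (2.26 ± 0.45, limma, adjusted p = 0.0641). Cars, which charges cysteine tRNA, is not on that list and was called. It measured 6.74, 7.32 and 6.20 FPKM in GFP and 11.6, 13.0 and 11.1 FPKM in Cre livers (0.73 ± 0.10, limma, adjusted p = 0.0117). Atf4 itself differed by -0.02, Ddit3 by 0.06 and Trib3 by -0.57, with adjusted p from 0.256 to 0.974.

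Among lipid genes, Fads2, the delta-6 desaturase that begins the synthesis of long polyunsaturated fatty acids (chromosome 19, 10064164 to 10101503), measured 166, 166 and 179 FPKM in GFP 1, 2 and 3 and 297, 312 and 300 FPKM in Cre 1, 2 and 3. The replicates were tight and the groups far apart, and Fads2 rose by 0.83 ± 0.10 (limma, adjusted p = 0.00481). It stayed called with any 1 library left out, and over the shallower libraries its adjusted p was 0.0866. Its neighbour in the pathway, Fads1, was at 112 to 123 FPKM in GFP and 144 to 154 FPKM in Cre livers (0.34, adjusted p = 0.133).

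Of 15 genes of fatty acid synthesis 12 were above 0, and Fads2 was the single call. The median change was 0.18, and it ran from 0.10 without GFP 3 to 0.35 without GFP 1, with 0.11 without GFP 2 or Cre 3. Fasn differed by 0.11 and Scd1 by 0.31, while the master regulator Srebf1 measured 44.2, 41.8 and 60.1 FPKM in GFP and 50.8, 34.2 and 47.0 FPKM in Cre livers, with overlap (-0.14 ± 0.24, limma, adjusted p = 0.871). Without GFP 3 or without Cre 2 the sign of that difference turned (0.01 and 0.02). Of 20 genes of cholesterol synthesis 17 were above 0 (median 0.27), with 0 calls and 0 unadjusted p under 0.05, and the median was 0.06 without GFP 3, 0.47 without GFP 1 and 0.09 over the shallower libraries.

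PPARα targets and genes of fatty acid oxidation did not move one way. Of 25 genes 18 were above 0 (median 0.14), and Fgf21 was the single call. Unadjusted p was under 0.05 for 9 in the higher and 4 in the lower direction, against 5.74% and 6.58% of all genes. The 9 include Pdk4, which was tested only through its fasted Cre values. Plin2, which coats lipid droplets, was at 164 to 234 FPKM in GFP and 258 to 403 FPKM in Cre livers (0.75, limma, adjusted p = 0.112). Cyp4a10, a fatty acid hydroxylase, was lower without overlap, at 270 to 342 FPKM in GFP and 171 to 207 FPKM in Cre livers (-0.76, adjusted p = 0.150).

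In lipid export and lipoprotein metabolism 15 of 23 genes were below 0 (median -0.16, and -0.11 without GFP 3), and 0 were called. Of the 15, 8 had unadjusted p under 0.05, against 6.58% of all genes in that direction. Scarb1, the receptor that takes cholesterol from high-density lipoprotein, measured 47.1, 49.8 and 52.2 FPKM in GFP and 38.4, 30.5 and 30.3 FPKM in Cre livers (-0.58 ± 0.11, limma, adjusted p = 0.0560). Apob and Mttp, which build very-low-density lipoprotein, differed by 0.11 and 0.01. Lpin1, a phosphatidate phosphatase and nuclear coactivator, measured 24.2, 34.0 and 36.2 FPKM in GFP and 14.7, 10.5 and 10.8 FPKM in Cre livers, apart in every library (-1.32 ± 0.24, adjusted p = 0.0522).

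Cyp27a1, the sterol 27-hydroxylase of the alternative bile acid pathway (chromosome 1, 74713574 to 74737890), measured 285, 299 and 327 FPKM in GFP and 212, 183 and 190 FPKM in Cre livers. It fell by 0.64 ± 0.08 (limma, adjusted p = 0.00979), and the call was lost without GFP 3 or Cre 2 (adjusted p up to 0.0560). The other enzymes of bile acid synthesis were not called. Cyp7a1, the rate-limiting enzyme, measured 26.9, 29.9 and 32.7 FPKM in GFP and 39.0, 35.3 and 35.8 FPKM in Cre livers (0.29 ± 0.25, adjusted p = 0.698). Cyp8b1, the sterol 12-hydroxylase, measured 106, 152 and 123 FPKM in GFP and 104, 115 and 75.9 FPKM in Cre livers (-0.37 ± 0.29, adjusted p = 0.659). Of 17 genes of bile acid synthesis and transport 11 were below 0 (median -0.18, and -0.08 without GFP 3).

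Of 32 genes of P450 and drug metabolism 22 were below 0 (median -0.23), and Cyp2b10 and Cyp2c38 were called, both lower, against 0.191% of all genes. Unadjusted p was under 0.05 for 10 in the lower and 1 in the higher direction, against 6.58% and 5.74% of all genes. Hsd17b6, which is not on that list and oxidises androgen metabolites and retinol (chromosome 10, 127990936 to 128007508), measured 188, 222 and 223 FPKM in GFP and 77.3, 75.9 and 83.9 FPKM in Cre livers. It fell by 1.40 ± 0.24 (limma, adjusted p = 0.0460), a call lost without any 1 library (adjusted p up to 0.192). Cyp2b10, a P450 induced by drugs, measured 15.2, 9.80 and 13.4 FPKM in GFP and 2.13, 2.05 and 3.97 FPKM in Cre livers (-1.91 ± 0.28, adjusted p = 0.0134).

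Cyp2c38 measured 38.6, 28.7 and 28.7 FPKM in GFP and 10.3, 5.58 and 7.39 FPKM in Cre livers (-1.94 ± 0.31, limma, adjusted p = 0.0272). Its relative Cyp2c39 was listed at 142, 101 and 84.3 FPKM in GFP and 27.1, 1.00 and 1.22 FPKM in Cre livers, with Cre 1 far above Cre 2 and 3, and was not called (-4.42 ± 1.10, adjusted p = 0.132). All 3 P450 genes have close copies in the genome among which reads can be divided, so their levels are uncertain. The call of Cyp2b10 was lost without GFP 1, GFP 3, Cre 1 or Cre 2 (adjusted p up to 0.0857), and that of Cyp2c38 without any library but Cre 1 (adjusted p up to 0.145). The receptor gene Nr1i3, which controls Cyp2b10, differed by -0.56 (adjusted p = 0.267).

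Among regulators, Foxa3, a pioneer forkhead factor of liver (chromosome 7, 19013283 to 19023539), measured 18.8, 20.9 and 17.5 FPKM in GFP and 34.1, 34.9 and 39.1 FPKM in Cre livers. It rose by 0.88 ± 0.13 (limma, adjusted p = 0.0134), and of 16 liver transcription factors it was the single call. Foxa1 and Foxa2 differed by -0.16 and 0.24 and Hnf4a by -0.15. Ldb1, an adaptor of LIM-domain factors, was at 14.5 to 16.9 FPKM in GFP and 10.5 to 10.9 FPKM in Cre livers and fell by 0.52 ± 0.09 (adjusted p = 0.0392). Il6ra, the interleukin-6 receptor, was at 9.89 to 11.5 FPKM in GFP and 5.88 to 6.59 FPKM in Cre livers and fell by 0.68 ± 0.12 (adjusted p = 0.0392).

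Fam134b (chromosome 15, 25843264 to 25973687), a receptor that sends endoplasmic reticulum to autophagy, measured 43.1, 40.8 and 46.0 FPKM in GFP and 24.4, 22.5 and 25.7 FPKM in Cre livers. It fell by 0.81 ± 0.10 (limma, adjusted p = 0.00905), yet the list of 20 autophagy and lysosome genes, which had 0 calls, had a median of -0.02. Usp2, a deubiquitinase under clock control, was at 15.7 to 17.2 FPKM in GFP and 6.49 to 10.1 FPKM in Cre livers and fell by 0.88 ± 0.15 (adjusted p = 0.0392). The potassium channel gene Kcnn2 fell by 0.72 ± 0.09, the endosomal recycling gene Rab4a by 0.48 ± 0.09 and the transporter-like Slc35e2 by 0.56 ± 0.07, with adjusted p from 0.00979 to 0.0482.

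Genes called higher included Cldn2, a tight-junction claudin, at 19.8 to 20.8 FPKM in GFP and 27.8 to 29.2 FPKM in Cre livers (0.48 ± 0.07, limma, adjusted p = 0.0116). Slc35d1, a nucleotide-sugar transporter, was at 16.9 to 17.9 FPKM in GFP and 23.2 to 24.5 FPKM in Cre livers (0.43 ± 0.08, adjusted p = 0.0482). Clstn3, a calsyntenin, was at 1.06, 0.821 and 1.16 FPKM in GFP and 2.52, 2.88 and 2.63 FPKM in Cre livers (0.87 ± 0.12, adjusted p = 0.0117). These 3 genes had tight replicates.

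D0H4S114, an older symbol of Nrep, measured 8.17, 7.74 and 3.33 FPKM in GFP and 32.0, 21.9 and 15.7 FPKM in Cre livers (1.73 ± 0.30, limma, adjusted p = 0.0443). Lgals1, a galectin, measured 11.1, 6.46 and 7.10 FPKM in GFP and 19.8, 27.0 and 40.1 FPKM in Cre livers (1.68 ± 0.24, adjusted p = 0.0134). Itih5 was at 0.101, 1.17 and 0.0245 FPKM in GFP and 2.17, 3.61 and 2.52 FPKM in Cre livers (1.46 ± 0.26, adjusted p = 0.0482), with GFP 2 well above the other GFP libraries. Erdr1, which lies in the region shared by the X and Y chromosomes and is hard to place, measured 12.2, 7.43 and 9.21 FPKM in GFP and 29.6, 55.9 and 46.1 FPKM in Cre livers (2.06 ± 0.28, adjusted p = 0.0105).

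Cep152, a scaffold protein of the centrosome (chromosome 2, 125563088 to 125625113), measured 2.73, 2.52 and 2.49 FPKM in GFP and 0.628, 0.519 and 0.528 FPKM in Cre livers. Its replicates were close and its mean 4.62-fold lower in Cre livers. It fell by 1.20 ± 0.11 (limma, adjusted p = 0.00132), and, with Foxo1, it was called under each of the 14 alternatives run. Of 12 cell cycle genes 6 were below 0 and 0 were called. Prelid2 measured 4.97, 6.83 and 4.39 FPKM in GFP and 0.821, 0.400 and 1.24 FPKM in Cre livers (-1.82 ± 0.24, adjusted p = 0.0102). Snord17, a small nucleolar RNA, was at 6.17, 2.78 and 2.61 FPKM in GFP livers and listed at 0 in the 3 Cre livers, which is at most 2 implied fragments in any library, so no fold is given. The predicted genes B930025P03Rik (-0.99) and Gm4956 (-0.98) complete the 31.

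Which of these 31 calls rested on single libraries was counted by leaving out each of the 6 in turn. Foxo1, Cep152, Fgf21 and Fads2 stayed called in all 6 fits. Fam134b, Kcnn2 and Slc35e2 were lost without Cre 2 alone (adjusted p up to 0.0560), while Snord17 and B930025P03Rik no longer passed the filter on low values when a GFP library was missing. Both passed that filter only through the fasted GFP libraries, where they were high, so their calls are not independent of the filter. Ldb1, Il6ra, Hsd17b6, Klf15, Eif4ebp3, Rab4a and Slc35d1 were lost in all 6 (adjusted p up to 0.222). The count of calls ran from 7 without Cre 2 to 36 without Cre 1, and was 18, 14 and 11 without GFP 1, 2 and 3 and 27 without Cre 3. The remaining 15 genes were lost in 2 to 5 of the 6 fits, and each of them was lost without Cre 2.

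Glucocorticoid-responsive, clock, immediate early and interferon response genes had 0 calls. Of 16 glucocorticoid-responsive genes 14 were below 0 (median -0.53), 6 with unadjusted p under 0.05 in that direction, against 6.58% of all genes. The median was -0.25 without Cre 2 and -0.32 over the shallower libraries, with 13 of 16 below 0 in each. Tsc22d3, a glucocorticoid-induced leucine zipper, was at 27.2, 36 and 69.2 FPKM in GFP and 14.1, 9.84 and 22.1 FPKM in Cre livers (-1.43 ± 0.48, limma, adjusted p = 0.245). The receptor gene Nr3c1 differed by -0.03. Of 16 clock genes 15 were below 0 (median -0.16, and -0.24 without GFP 2), among them Per1 at 8.30, 10.9 and 12.6 FPKM in GFP and 4.34, 1.95 and 7.95 FPKM in Cre livers (-1.14 ± 0.31, adjusted p = 0.163).

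Immediate early genes, which answer growth and stress signals within minutes to hours, were above 0 in 11 of 15 (median 0.52). The median was 0.24 without GFP 3 and 0.25 without Cre 3. Egr1 measured 19.2, 4.36 and 3.48 FPKM in GFP and 20.4, 21.0 and 33.4 FPKM in Cre livers (1.69 ± 0.45, limma, adjusted p = 0.159). GFP 1 nearly reached the Cre range, and Fos showed the same order, at 1.42, 0.374 and 0.1 FPKM against 1.57, 1.97 and 3.99 FPKM (1.13 ± 0.29, adjusted p = 0.136). All 15 interferon response genes were above 0 (median 0.28), 4 with unadjusted p under 0.05, against 5.74% of all genes in that direction. Ifit1 was at 1.33 to 2.59 FPKM in GFP and 3.36 to 4.46 FPKM in Cre livers (0.65 ± 0.22, adjusted p = 0.255).

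**Figure D3:**
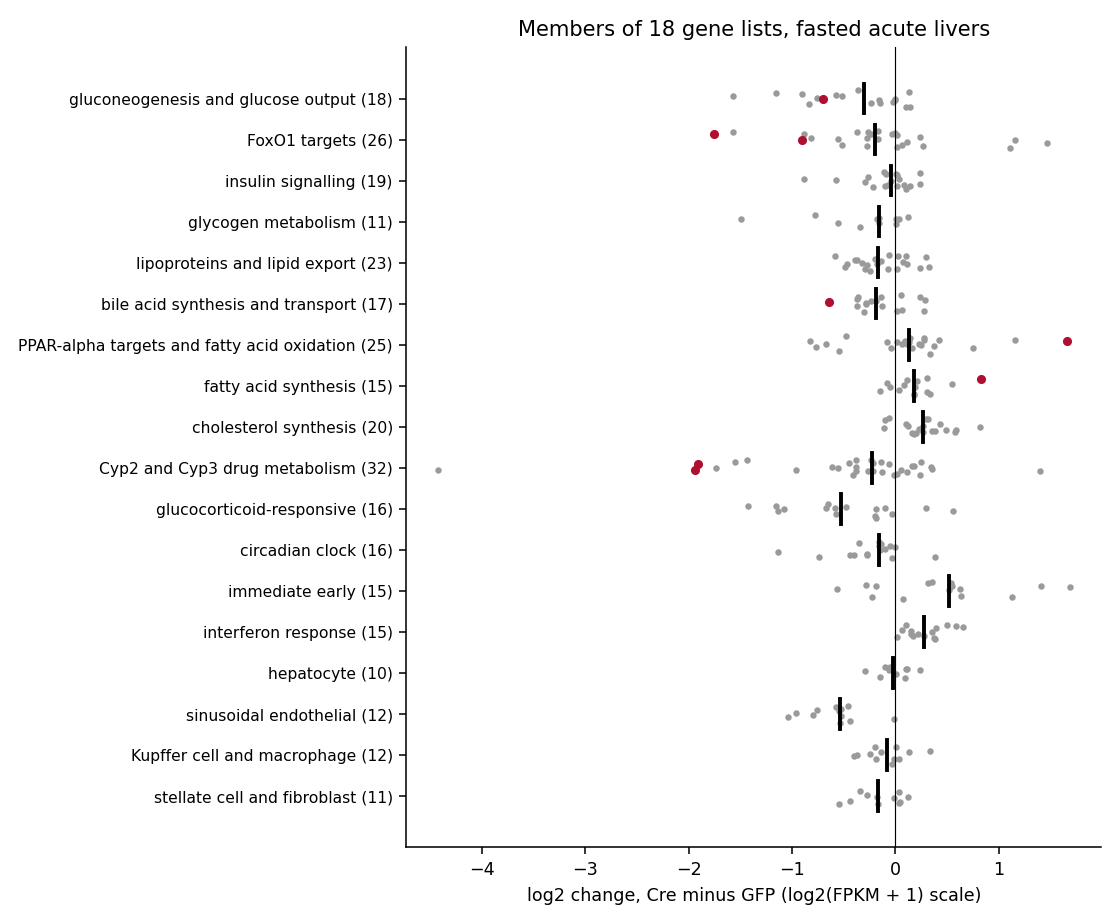
Log2 change, Cre minus GFP (x axis), of each tested member of 18 gene lists (rows, with the number of members), where red points are called genes and black bars medians. Medians run from -0.54 (sinusoidal endothelial) and -0.53 (glucocorticoid-responsive) to 0.52 (immediate early), the second being -0.25 without Cre 2 and the last 0.24 without GFP 3, and most lists straddle 0.

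In growth hormone and insulin-like growth factor genes the members diverged. Socs2 and Cish, feedback inhibitors induced by growth hormone through STAT5, were at 2.87 to 4.65 and 3.26 to 5.08 FPKM in GFP and at 6.73 to 11.5 and 8.35 to 14.2 FPKM in Cre livers (1.04 and 1.25, limma, adjusted p = 0.115 and 0.255). Igfbp2 was at 286, 431 and 389 FPKM in GFP and 147, 188 and 222 FPKM in Cre livers (-0.98 ± 0.26, adjusted p = 0.154). Igf1 differed by 0.28 (adjusted p = 0.278). Male-biased liver genes were above 0 in 17 of 19 (median 0.45), with Cyp4a12a at 7.26, 9.09 and 27.1 FPKM in GFP and 107, 124 and 49.5 FPKM in Cre livers (2.73 ± 0.89, adjusted p = 0.237), and by library that list's median deviation was lowest in GFP 1 (-0.66). Without GFP 1 the list's median was 0.09, without Cre 1 it was 0.22, and without GFP 3 or Cre 3 it was 0.75 or 0.85. Female-biased genes were below 0 in 5 of 9 (median -0.39), with the highest deviation in GFP 1 (0.91), and over the shallower libraries the median was of the other sign (0.03, 4 of 8 below 0).

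Among the other pathway lists, 16 of 20 genes of the urea cycle and amino acid catabolism were below 0 (median -0.04), and 0 were called. Of the 16, 5 had unadjusted p under 0.05, against 6.58% of all genes in that direction. Oxidative stress genes controlled by NRF2 were above 0 in 13 of 17 (median 0.09). Of the 13, 3 had unadjusted p under 0.05, against 5.74% of all genes in that direction. Heat shock chaperones (median 0.11), endoplasmic reticulum stress genes (0.00), acute phase genes (0.01) and ribosome biogenesis genes (0.02) had 0 calls. Pericentral and periportal hepatocyte genes had medians of 0.00 and -0.05, with Cyp27a1 the single call.

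Markers of liver cells other than hepatocytes were read in the same libraries. All 12 markers of sinusoidal endothelial cells were below 0 (median -0.54), and 9 had unadjusted p under 0.05, against 6.58% of all genes in that direction, with 0 called. Their summed level was 104, 55.3 and 98.4 FPKM in GFP 1, 2 and 3 and 63.3, 44.9 and 34.2 FPKM in Cre 1, 2 and 3. The sums overlapped, since GFP 2 lay below Cre 1. Oit3 measured 7.38, 3.61 and 6.67 FPKM in GFP and 3.61, 1.89 and 1.57 FPKM in Cre livers (-1.04 ± 0.26, limma, adjusted p = 0.128). Lyve1, by contrast, was below 1 FPKM in all 6 libraries and differed by -0.02. In whole liver, fewer cells of a type and less RNA per cell cannot be told apart.

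Kupffer cell and macrophage markers summed to 69.3 to 94.7 FPKM in GFP and 76.7 to 106 FPKM in Cre livers (8 of 12 below 0, median -0.08, and 0.03 without Cre 3). Stellate cell and fibroblast markers summed to 68.6 to 146 FPKM and 60.6 to 91.5 FPKM (7 of 11 below 0, median -0.16, and 0.03 without GFP 1). Erythroid markers summed to 36.6, 244 and 34.3 FPKM in GFP 1, 2 and 3 and to 274, 186 and 131 FPKM in Cre livers, so GFP 2 resembled the Cre livers. Lymphocyte markers summed to 0.974 to 1.64 FPKM and pancreatic acinar markers to 0.497 to 1.19 FPKM over the 6 libraries, and no member of either was tested, with 4 of 7 acinar markers at 0 in all 6. Neutrophil markers summed to 1.54 to 5.14 FPKM in GFP and 1.59 to 2.69 FPKM in Cre livers. The part of these cell types in the gene results was not tested.

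**Figure D4:**
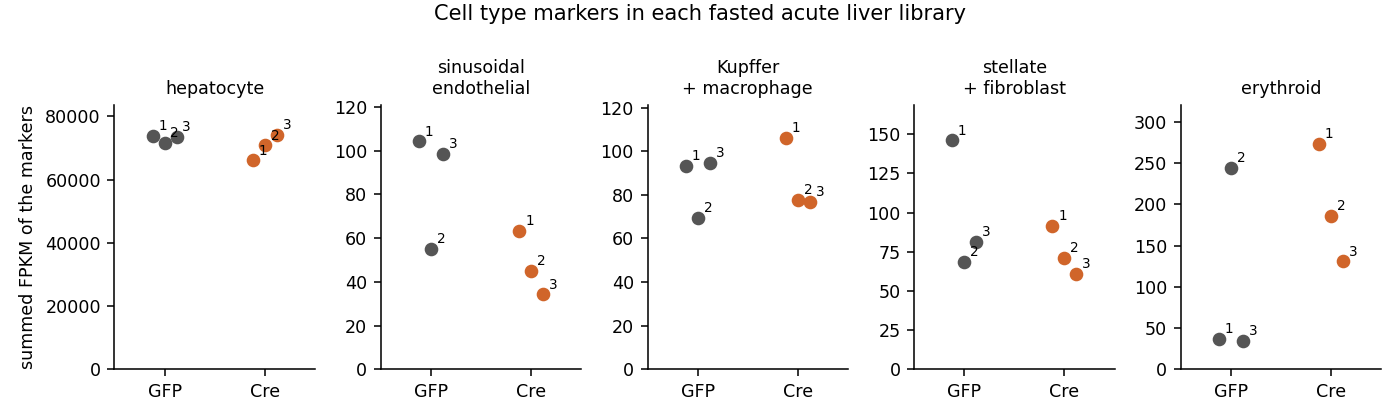
Summed FPKM of the markers of 5 cell types (1 panel each, axis from 0) in each GFP (grey) and Cre (orange) fasted acute library, with the library number beside each point. Endothelial sums are 55.3 to 104 in GFP and 34.2 to 63.3 in Cre livers, and erythroid sums are low in GFP 1 and 3 only.

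The deletion in refed acute livers and in fasted constitutive livers was set beside the fasted acute one, with which they share no library. Refed acute livers had 11 calls (0.105%, and 9.09% at unadjusted p under 0.05) and constitutive fasted livers 10 of 10375 (0.0964%, and 6.56%). Of the 30 genes other than Foxo1, 24 had the same direction in the refed comparison (80.0%), against 56.9% of all genes tested, and 23 in the constitutive one (76.7%), against 53.7%. For the 11 genes called higher the median changes were 0.88 in fasted acute, 0.19 in refed acute and 0.11 in constitutive livers, and for the 20 called lower they were -0.94, -0.48 and -0.27. Since the genes were chosen on the fasted acute values, the medians are a description and their sizes are not compared. Besides Foxo1, Cyp2b10 and Gm4956 were also called in refed livers, and no gene in constitutive livers.

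Some genes, picked here for one direction in all 3 comparisons, are given side by side. Eif4ebp3 changed by -1.75, and in the refed and constitutive comparisons the values were -1.59 ± 0.31 and -1.57 ± 0.41 (limma, adjusted p = 0.106 and 0.324). Slc37a4, at -0.70 here, had -0.37 ± 0.10 and -0.50 ± 0.09 (adjusted p = 0.222 and 0.0825). Hsd17b6, at -1.40 here, had -1.13 and -0.73 (adjusted p = 0.113 and 0.565). Scarb1, not called here at -0.58, had -0.44 and -0.56 (adjusted p = 0.186 and 0.0679).

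For Fads2, Foxa3 and Cldn2 the values in the other comparisons lay between -0.16 and 0.21, and the interactions with refeeding were not called (limma, adjusted p = 0.242, 0.646 and 0.242). Fads2 had 0.12 in refed and -0.05 in constitutive livers (limma, adjusted p = 0.783 and 0.996). In refed livers its level was 321 ± 44.4 FPKM in GFP and 347 ± 18.2 FPKM in Cre livers (SD, n = 3 each), near the fasted Cre level of 303 ± 8.18 FPKM. Foxa3 and Cldn2 showed the same layout, with refed GFP levels of 37.5 ± 4.29 and 30.2 ± 0.512 FPKM beside fasted Cre levels of 36 ± 2.66 and 28.5 ± 0.671 FPKM. Fam134b was at 24.2 ± 1.48 FPKM in refed GFP and 24.2 ± 1.58 FPKM in fasted Cre livers, against 43.3 ± 2.62 FPKM in fasted GFP livers, and at 15.3 ± 2.20 FPKM in refed Cre livers (-0.63 ± 0.10, adjusted p = 0.0529). These genes are given for this layout, and not all called genes had it. Slc37a4 was at 120 ± 10.1 FPKM in refed GFP, 119 ± 1.52 FPKM in fasted GFP and 72.9 ± 8.86 FPKM in fasted Cre livers. Klf15 was at 72.0 ± 6.30, 74.9 ± 9.55 and 40.1 ± 7.75 FPKM in the same order. Likeness between deletion and refeeding was not tested.

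**Figure D5:**
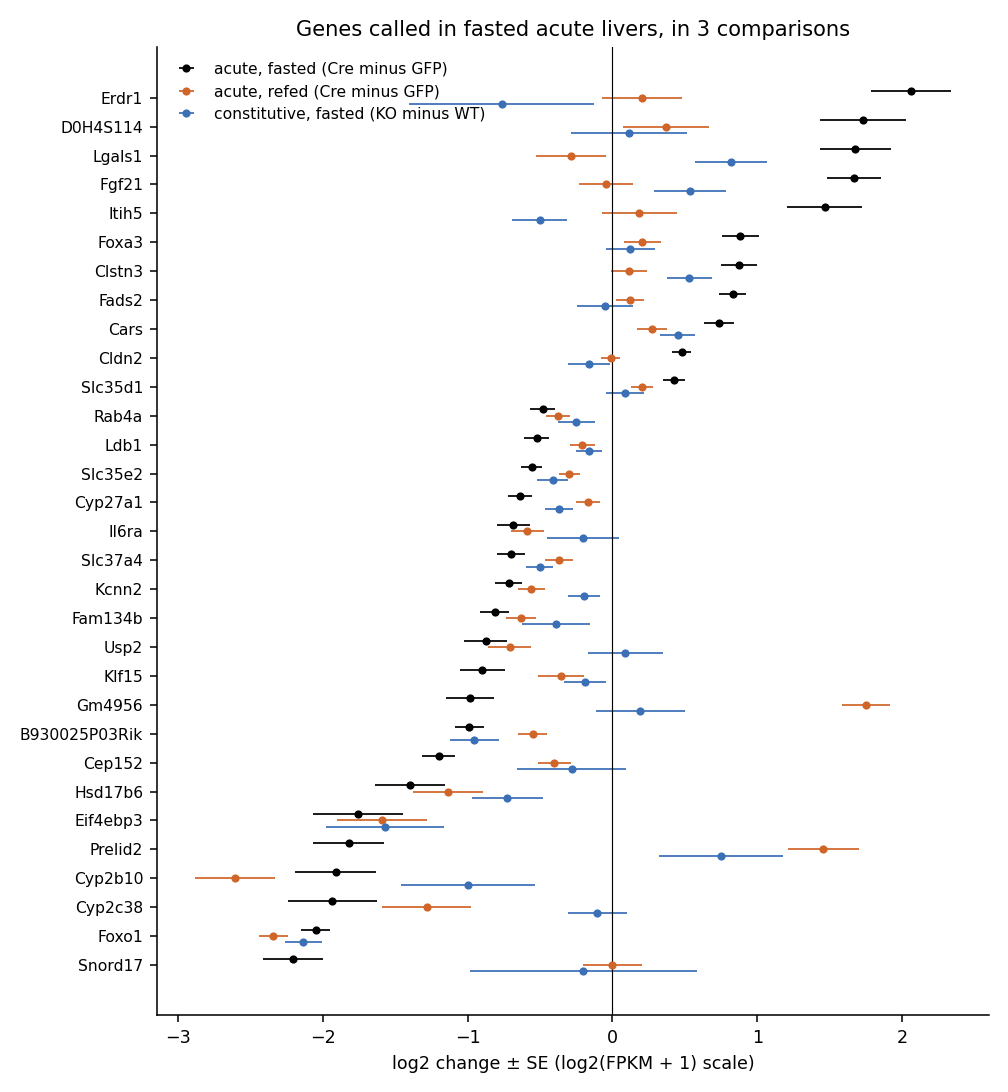
Log2 change ± SE (x axis) of the 31 genes called in fasted acute livers (y axis) in fasted acute (black), refed acute (orange) and fasted constitutive livers (blue). Foxo1 and Eif4ebp3 lie together in all 3, while Prelid2 and Gm4956 lie on opposite sides of 0 in fasted and refed acute livers.

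Whether the effect of deletion differed between fasted and refed acute livers was tested gene by gene as an interaction. Of 10452 genes 3 were called (0.0287%), with 6.6% at unadjusted p under 0.05. They were Prelid2 (-3.28, limma, adjusted p = 0.00527), Snord17 and the predicted gene Gm4956. Snord17 passed the filter on low values only through the fasted GFP livers. Prelid2 was lower in fasted Cre livers but measured 1.46, 0.574 and 0.693 FPKM in GFP and 4.35, 5.53 and 2.86 FPKM in Cre livers after refeeding.

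Fgf21 was at 1.04 ± 0.442 FPKM in refed GFP and 0.966 ± 0.296 FPKM in refed Cre livers, and its interaction of 1.71 ± 0.26 was not called (limma, adjusted p = 0.0679). For Irs2 the change was -0.88 when fasted and 0.30 when refed, with an interaction of -1.19 ± 0.24 (adjusted p = 0.293). For G6pc the values were -1.57 and -0.06, with an interaction of -1.51 ± 0.48 (adjusted p = 0.669).

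The difference between acute and constitutive deletion in fasted livers called 0 of 10682 genes by limma, with 7.85% at unadjusted p under 0.05. The smallest adjusted p, 0.0636, was that of Enho, whose change was 1.47 in acute and -0.72 in constitutive livers, a difference of 2.19 ± 0.38. Itih5 followed (1.97 ± 0.34), and then Ppap2a, at 6.03 to 8.91 FPKM in GFP and 3.89 to 4.57 FPKM in Cre livers (-0.97 ± 0.17). Endothelial markers were below 0 in 12 of 12 in fasted acute (median -0.54) and in 0 of 12 in constitutive livers (median 0.35). In refed acute livers, 9 of 12 were below 0, with a median of only -0.11. The difference between acute and constitutive deletion for Oit3 was -1.52 ± 0.31 (limma, adjusted p = 0.111). For the difference between acute and constitutive deletion, 45 genes were called without GFP 2 and 30 without Cre 1, and why was not tested.

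Igfbp1 and Igfbp2 were called in constitutive fasted livers, at -1.44 ± 0.21 and -1.26 (limma, adjusted p = 0.0267 for each). In acute livers they were at -0.56 and -0.98 and not called, and for Igfbp1 the difference between the models was 0.88 ± 0.79 (adjusted p = 0.873).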

How the data were processed

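The deposited files give 1 FPKM value per gene locus and library, computed by the authors. HISAT2, Cufflinks, Cuffdiff and the mm10 build are listed in the submitters' processing notes, without versions, and how strand was handled was not given in the sources used here. Libraries were made with a TruSeq Stranded mRNA kit, per the labels' protocols. The deposited confidence limits imply fragment numbers, of which 62.3% of 107423 under 30 lay within 0.05 of a whole number (10% by chance). Their sums gave depth.

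Groups came from sample titles. Loci marked as failed in any library (14 of 23746) were left out, as were genes that reached 1 FPKM in fewer than 3 fitted libraries. log2(FPKM + 1), which understates changes of low genes, was fitted with limma 3.58.1 (R 4.3.3; trended eBayes), 1 coefficient a group and no covariate, over the 12 acute libraries, the 12 constitutive ones or all 24. The script was tested on simulated data. Tables, sums and figures were made with Python 3.11.15 and pandas 2.3.3.

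The comparison, the gene lists and the naming rule (all called genes, list members with the smallest p and non-overlapping groups, and fixed genes) were chosen with earlier results of these data known. A few genes were named after their values were seen: Ddx3y, Atf4, Ddit3, Fbp1, Pcx, Akt1, Akt2, Bcl6, Fasn, Scd1, Apob, Mttp, Foxa1, Foxa2, Hnf4a, Nr3c1, Nr1i3, Cyp2c39, Lyve1, Ppap2a, Mir686, Snora31, Snora28 and Ces2c. Alternatives were another pseudocount, no filter, median-of-ratios scaling, the compared groups alone, array weights, a block for replicate number, a threshold of 0.01, each library left out, the 8 shallower acute libraries alone, and a depth term. A gene of the naming rule is not reported here.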

Additional observations from a re-analysis of the deposited data

Results flagged for a closer look

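In 3 genes the effect of deletion differed between fasted and refed acute livers by limma's interaction. Gm4956, a predicted gene, had the smallest p (-2.73, adjusted p = 0.00128), at 5.70, 7.39 and 7.24 FPKM in GFP and 3.83, 2.08 and 3.02 FPKM in Cre fasted livers but 1.80, 1.47 and 2.19 FPKM in GFP and 9.61, 8.27 and 7.54 FPKM in Cre refed livers. Prelid2 showed the same crossing (-3.28, adjusted p = 0.00527), at 5.40 ± 1.27 against 0.821 ± 0.422 FPKM in GFP and Cre fasted livers and 0.909 ± 0.481 against 4.25 ± 1.34 FPKM in refed ones (SD, n = 3 each). Snord17 (-2.21, adjusted p = 0.0349) was above 0 in the fasted GFP group alone, and was listed at 0 in the 9 other acute libraries. Since it passed the filter on low values through the fasted GFP group alone, at no more than 2 implied fragments a library, its call is not independent of the filter.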

How the results depend on the processing

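Against 31 calls in fasted acute livers, limma made 10 at an adjusted p under 0.01, 17 without a filter, 61 over the compared groups alone, 76 with array weights, 5 over the shallower libraries and 7 to 36 with a library left out. For the interaction, against 3, there were 5 with the depth term and 2 to 7 with a library left out. For acute against constitutive, against 0, there were 4 with array weights, 4 over the shallower acute libraries and 0 to 45 with a library left out. Constitutive fasted livers had 10, and 1 at 0.01, 4 without a filter, 5 over the groups alone, 21 with array weights and 1 to 7 with a library left out. Refed acute livers had 11, and 3 at 0.01, 6 without a filter, 3 over the groups alone, 4 over the shallower libraries, 5 with the replicate block and 3 to 66 with a library left out. The other counts stayed within 1.5 times; the cause of these shifts was not tested.

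With the replicate number as a block there were 23 calls in fasted acute livers, 3 for the interaction, 0 between models and 10 in constitutive livers. Same-numbered acute libraries of different groups deviated with correlations of -0.349 to 0.378, and differently numbered ones of -0.531 to 0.472, so the numbers were not taken as pairs. The highest, 0.472, was between the deeper libraries GFP 3 and Cre 1.

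Of 142 named genes, 0 of 31 called ones changed sign, and 14 uncalled ones gained a call somewhere, 8 over the compared groups alone (G6pc, Cyp2c37, Cish, Gstm3, Cyp4a10, Enho, Asns and Lpin1; adjusted p from 0.0155 to 0.0492). The others were Irs2, Cyp2c54 and Scarb1 with array weights, Per1 without Cre 3, and Gdf15 and Egr1 without GFP 1. Medians of 11 of 40 lists turned sign somewhere, 9 of them within 0.1 of 0. Igfbp1 did without Cre 1 (0.040; range with a library left out -0.98 to 0.040) and over the shallower libraries (0.16), and Srebf1 without GFP 3 (0.01) or Cre 2 (0.023; range -0.26 to 0.023). Depth limits genes such as Snord17 and Fgf21, with 0 to 3 implied fragments in some libraries.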

Other observations

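The widest differences in fasted acute livers were in very short RNAs, whose FPKM rises steeply with each fragment. Mir686 was listed at 1073, 208 and 15 FPKM in GFP and below 1 FPKM in all Cre livers, with a refed difference of 5.16 of the other sign. Snora31 was listed at 0 in the 3 GFP livers and at 64.6, 62.9 and 112 FPKM in Cre livers (limma, adjusted p = 0.118), and its refed value was -2.27. Snora28 was listed at 43.5, 39.2 and 55.2 FPKM in GFP livers and at 0 in the 3 Cre livers (adjusted p = 0.172). None of these 3 genes was called.

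Ces2c, a carboxylesterase gene named after its values were seen, measured 13.3, 10.7 and 16.8 FPKM in GFP and 37.0, 32.3 and 33.4 FPKM in Cre livers (1.29 ± 0.26, limma, adjusted p = 0.0641). Gstm3, a glutathione transferase gene on the NRF2 list, measured 52.2, 45.2 and 51.5 FPKM in GFP and 111, 92.7 and 151 FPKM in Cre livers (1.21 ± 0.24, adjusted p = 0.0665). In refed acute livers their values were 1.04 and 1.14, and in constitutive livers 0.40 and 0.08.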
